A study of Saccharomyces cerevisiae with 12 samples.

Results

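The strain by medium interaction asks, gene by gene, whether baker's yeast that carried the mutant TATA-binding protein spt15-300 answered a change of medium as yeast with the wild type protein did. It was computed from 11 of the 12 arrays of the study, chosen by their titles, leaving out the array titled OUTLIER. The response of a strain is its mean log2 intensity with ethanol minus that without, and the interaction is the response of the mutant minus the response of the wild type. A negative interaction therefore means a smaller rise or a larger fall in the mutant, or a fall in the mutant against a rise in the wild type. The 4 groups were the mutant with 5% ethanol and 60 g/L glucose (2 arrays used), the mutant with 0% ethanol and 20 g/L glucose, the wild type with 5% ethanol and 60 g/L glucose, and the wild type with 0% ethanol and 20 g/L glucose (3 arrays each). They are called with and without ethanol below, although glucose changed along with ethanol and the effects of the 2 cannot be told apart. Every culture was BY4741, a haploid laboratory yeast of a mating type that lacks working HIS3, LEU2, MET17 and URA3, grown in YSC -URA. Each held the plasmid p416-Tefmut2 with spt15-300 (mutant) or SPT15 (wild type), in a host for which the labels name no deletion of the chromosomal SPT15. Mutant cells may thus have held both forms of the protein. The design text speaks of biological triplicates, and each array is 1 culture.

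SPT15 encodes the TATA-binding protein, which places RNA polymerases at promoters and reaches DNA through the general factor TFIID and the coactivator SAGA. Genes with a canonical TATA box, among them many that respond to stress or nutrients, are known to depend on SAGA more than housekeeping genes do. A textbook example is the phosphate pathway: when phosphate is scarce, the inhibitor Pho81 blocks the cyclin-dependent kinase Pho80-Pho85, and the activator Pho4 enters the nucleus and switches on phosphatases, phosphate transporters and polyphosphate synthesis. Respiratory genes and the general stress genes driven by Msn2 and Msn4 are likewise set by carbon source and stress in yeast.

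The genes that define the strains were read first. SPT15 measured 13.31 and 13.28 in the mutant with ethanol, 13.43, 13.47 and 13.47 in the mutant without, 13.34, 13.33 and 13.37 in the wild type with ethanol and 13.50, 13.47 and 13.45 in the wild type without, in log2 intensity. The mutant read slightly lower with ethanol with no overlap, and the strains overlapped without it. Whether the probe set reads the mutant and the wild type form alike was not tested. The interaction of SPT15 was -0.03 (adjusted p = 0.731). URA3, the marker of the plasmid, measured 13.36 and 13.33 in the mutant with ethanol, 13.52, 13.54 and 13.52 in the mutant without, 13.14, 13.14 and 13.19 in the wild type with ethanol and 13.45, 13.42 and 13.42 in the wild type without. It was higher in the mutant in both media with no overlap, by 0.19 with ethanol (adjusted p = 0.0130) and by 0.09 without (adjusted p = 0.0646, not called), and its interaction was 0.10 (adjusted p = 0.279). Of the genes without a working copy in BY4741, MET17 stayed between 7.49 and 8.04. HIS3 lay between 11.23 and 11.88, above the arrays' medians of 10.46 to 10.52, so its probe set was clearly bright, and the HIS3 allele of BY4741 is known as a partial deletion. LEU2 read 10.16 and 10.26 in the mutant with ethanol, 7.98 to 8.23 in the mutant without, 9.09, 9.79 and 10.09 in the wild type with ethanol and 8.01, 8.09 and 7.88 in the wild type without. Its level with ethanol does not sit with a missing gene, and what the probe set then reads was not tested. As a sign of RNA quality, the log2 excess of the 3′ over the 5′ signal was taken as a median over 8 control mRNAs. It ranged over the arrays from 0.379 to 0.400 for the mutant with ethanol and from 0.240 to 0.266 for the mutant without, against 0.361 to 0.435 for wild type cultures with ethanol and 0.310 to 0.359 for those without. It moved with the medium by more in the mutant, by 0.0842 on the means, and its part in the results was not tested.

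The strains' responses were alike over most genes. Across 5449 genes they correlated at r = 0.905, a description in which genes are the points and all arrays share their normalisation, and of 2657 genes called in both strains 2638 moved the same way. The interaction passed the test for 66 genes, 1.21% of those measured (limma, Benjamini-Hochberg adjusted p under 0.05). It was negative in 45 genes (0.826%) and positive in 21 (0.385%). The median absolute interaction was 0.46 among the 66 genes and 0.10 over all genes. In a culture, more transcript in every cell and more cells that transcribe a gene cannot be told apart.

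The 45 negative genes were mostly genes that rose with ethanol in the wild type and rose less, or did not pass the test, in the mutant. Their median response was 0.20 in the mutant and 0.86 in the wild type. The wild type response was called higher for 40 of them, where 31.7% of all genes were, and called lower for 4, where 29% of all genes were. Since the interaction subtracts the wild type response, picking genes by a negative value itself favours a high wild type response. The counts of this paragraph therefore only describe the genes. In 26 genes both strains moved the same way with the smaller change in the mutant, and in 9 the wild type's response alone passed the test. In 5 genes both responses passed with opposite signs, in 4 both had the same sign with the larger change in the mutant, and in 1 the mutant's response alone passed. Over all genes, 33.8% rose and 28.7% fell in the mutant.

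The same arrays also give the strain difference in each medium, and because these comparisons share their arrays with the interaction they are given side by side as a description. For the 45 negative genes the median strain difference, mutant minus wild type, was 0.01 with ethanol and 0.54 without. With ethanol 9 of them were called higher in the mutant and 8 lower, against 5.73% and 5.98% of all genes. Without ethanol 42 were called higher in the mutant and 0 lower, against 8.26% and 8.07% of all genes. The interaction is also the strain difference with ethanol minus that without. Picking genes by a negative value thus favours a positive difference without ethanol and a negative one with it, and the reverse for positive genes. For the 21 positive genes the median strain difference was 0.09 with ethanol and -0.32 without, and 7 were called higher and 1 lower with ethanol, 0 higher and 19 lower without. For most of these genes the strains thus stood further apart without ethanol than with it, in 41 of the 45 and 16 of the 21. The share of all genes for which this held was not counted.

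**Figure D1:**
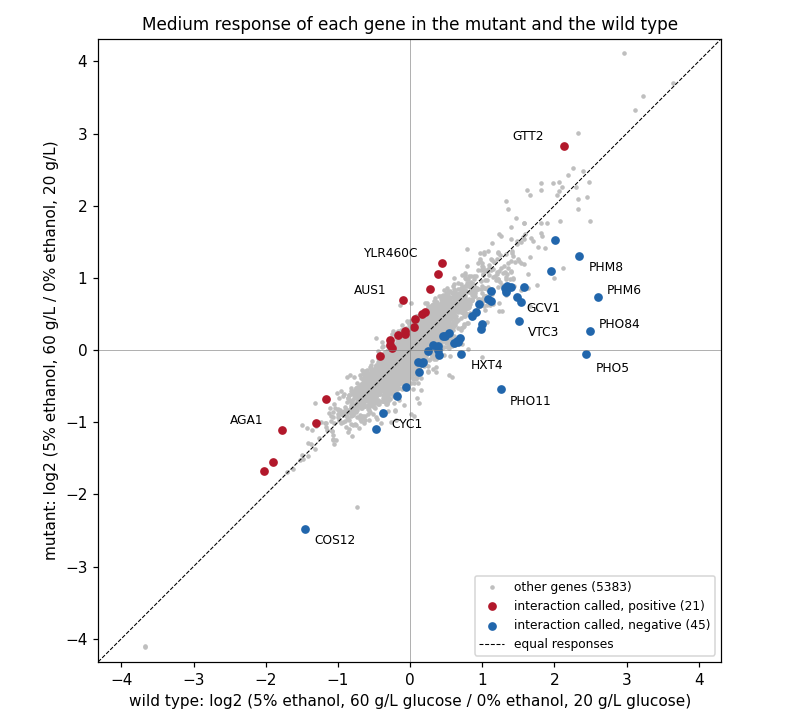
Response of every gene to the medium in the mutant (vertical axis) against the wild type (horizontal axis), both as log2 of the level with 5% ethanol and 60 g/L glucose over that with 0% ethanol and 20 g/L glucose; grey points are genes not called, blue the 45 negative and red the 21 positive interactions, and the dashed line marks equal responses. The phosphate genes PHO5, PHO84, PHO11 and PHM6 lie furthest below the line, with wild type responses of 2.44, 2.49, 1.26 and 2.60.

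How far the count rests on single arrays was read by leaving each out in turn. All 66 genes kept their sign in each of the 11 fits, and 16 kept their call in all of them: PHO5, PHO84, PHM6, PHO11, VTC3, VTC4, VTC1, PHO8, GCV1, CTF19, MCR1, CYC1, COS12, GTT2, YLR460C and YCR102C. The others lost it in at least 1 fit. Without replicate 3 of the wild type with ethanol the count was 448 genes, which included all 66. Without the other arrays it was 46 and 23 (mutant with ethanol, replicates 1 and 3), 47, 16 and 22 (mutant without ethanol, replicates 1, 2 and 3), 64 and 42 (wild type with ethanol, replicates 1 and 2) and 17, 20 and 42 (wild type without ethanol, replicates 1, 2 and 3). Leaving out replicate 2 of the mutant without ethanol ended 50 of the 66 calls, the most of any array.

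Phosphate genes carried the largest interactions. Of the 18 Pho4 target genes listed, 17 were measured, and 11 had a called negative interaction and 0 a positive one, against 0.826% and 0.385% of all genes. The median interaction of the list was -0.54, against 0.01 over all genes, and at an unadjusted p under 0.05 there were 13 negative and 1 positive members, against 8.85% and 11.1% of all genes. The mean level of the 17 genes was 11.79 and 11.74 in the mutant with ethanol, 11.24, 11.27 and 11.23 in the mutant without, 11.75, 11.70 and 11.72 in the wild type with ethanol and 10.43, 10.39 and 10.46 in the wild type without. The strains overlapped with ethanol, and the wild type without ethanol stood below every other group. The number of called members was 8 to 12 over the fits that left out 1 array.

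Among the phosphatases, PHO5, the main secreted acid phosphatase, had the lowest interaction of all genes. It measured 11.75 and 11.49 in the mutant with ethanol, 11.63, 11.71 and 11.68 in the mutant without, 11.75, 11.57 and 11.54 in the wild type with ethanol and 9.14, 9.09 and 9.30 in the wild type without. Only the wild type without ethanol stood apart. The ratio of PHO5 with ethanol to that without was 0.964 in the mutant (adjusted p = 0.642) and 5.44 in the wild type. Its interaction was -2.50 (SE 0.124, adjusted p = 8.16e-06). PHO11, a second secreted acid phosphatase, read 10.26 and 10.39 in the mutant with ethanol, 10.92, 10.88 and 10.80 in the mutant without, 10.84, 10.67 and 10.63 in the wild type with ethanol and 9.42, 9.38 and 9.57 in the wild type without. It fell by 0.54 in the mutant but rose by 1.26 in the wild type, an interaction of -1.80 (SE 0.105, adjusted p = 2.38e-05), read by a probe set that near-identical sequences share. PHO8, the vacuolar alkaline phosphatase, rose in both strains, by 0.87 in the mutant and 1.41 in the wild type (interaction -0.54, adjusted p = 0.00292).

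The transporters behaved unequally. PHO84, the high-affinity phosphate transporter of the plasma membrane, measured 13.57 and 13.48 in the mutant with ethanol, 13.29, 13.28 and 13.21 in the mutant without, 13.59, 13.56 and 13.55 in the wild type with ethanol and 10.996, 10.97 and 11.26 in the wild type without. It rose by 0.27 in the mutant and by 2.49 in the wild type, an interaction of -2.22 (SE 0.105, adjusted p = 8.16e-06). GIT1, the permease for glycerophosphoinositol, did not share this pattern. It measured 11.38 and 11.16 in the mutant with ethanol, 7.66, 7.86 and 7.72 in the mutant without, 10.94, 10.82 and 10.86 in the wild type with ethanol and 7.68, 7.59 and 7.66 in the wild type without. Both strains were low without ethanol and high with it, and the interaction was 0.30 (adjusted p = 0.175). PHO89, the sodium-coupled phosphate transporter, lay between 8.93 and 9.41 on all 11 arrays (interaction -0.10, adjusted p = 0.708).

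Vtc1 to Vtc4 are subunits of vacuolar transporter chaperone complexes, in which Vtc4 makes polyphosphate. VTC3 had 12.60 and 12.58 in the mutant with ethanol, 12.17, 12.19 and 12.20 in the mutant without, 12.61, 12.44 and 12.61 in the wild type with ethanol and 11.01, 11.01 and 11.12 in the wild type without. Its interaction was -1.11 (SE 0.077, adjusted p = 9.21e-05). The interaction was -0.65 for VTC4 (adjusted p = 0.000292) and -0.56 for VTC1 (adjusted p = 0.000399). For all 3 genes the mutant without ethanol lay between the wild type without ethanol and both groups with ethanol, with no overlap. VTC2 rose by 0.32 in the mutant and 0.43 in the wild type, and its interaction of -0.11 was not called (adjusted p = 0.382).

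PHM6, a phosphate-controlled gene of unknown function, measured 10.41 and 9.92 in the mutant with ethanol, 9.56, 9.47 and 9.27 in the mutant without, 10.26, 10.22 and 10.09 in the wild type with ethanol and 7.52, 7.43 and 7.81 in the wild type without. The last group lay just above the background of 7.24, the mean 95th percentile of the fission yeast probe sets. Its interaction was -1.87 (SE 0.204, adjusted p = 0.00257). PHM8, which encodes a nucleotide and lysophosphatidate phosphatase, measured 11.08 and 11.29 in the mutant with ethanol, 9.65, 10.02 and 9.98 in the mutant without, 10.20, 10.72 and 10.60 in the wild type with ethanol and 8.13, 8.13 and 8.23 in the wild type without. Unlike PHO5, it remained higher in the mutant with ethanol, by 0.67 (adjusted p = 0.0264), and its interaction was -1.04 (SE 0.203, adjusted p = 0.0440). PHO81, the kinase inhibitor of the pathway and itself a Pho4 target, and SPL2, a small regulator of phosphate uptake, had interactions of -0.37 (adjusted p = 0.0339) and -0.32 (adjusted p = 0.0469). PHM8 missed the threshold without either array of the mutant with ethanol, replicates 2 and 3 of the mutant without, replicate 2 of the wild type with ethanol or any array of the wild type without, at adjusted p = 0.0737 to 0.127. PHO81 missed it in every fit but those without replicate 2 or 3 of the wild type with ethanol (0.0583 to 0.114). SPL2 missed it in every fit but those without replicate 3 of the mutant with ethanol or replicates 1 and 3 of the wild type with ethanol (0.0740 to 0.143).

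The remaining members were not called. PHO86, needed to bring Pho84 to the cell surface, had an interaction of -0.27 (adjusted p = 0.145) and rose in both strains, by 0.19 in the mutant and 0.46 in the wild type. DDP1 and PPN1, which cut polyphosphate, had interactions of -0.16 (adjusted p = 0.135) and 0.04 (adjusted p = 0.752). Of 7 genes listed as regulators of the pathway or low-affinity transporters, 0 were called (limma), where 1.21% of all genes were. At an unadjusted p under 0.05, 2 were positive and 0 negative, against 11.1% and 8.85% of all genes. PHO85, the kinase, read 11.29 and 11.45 in the mutant with ethanol, 10.97, 11.03 and 11.05 in the mutant without, 11.19, 11.25 and 11.26 in the wild type with ethanol and 11.17, 11.19 and 11.14 in the wild type without (interaction 0.29, adjusted p = 0.0874). PHO4, the activator, measured 10.25 and 10.41 in the mutant with ethanol, 10.60, 10.63 and 10.62 in the mutant without, 10.21, 10.10 and 10.04 in the wild type with ethanol and 10.42, 10.40 and 10.27 in the wild type without. It fell with ethanol in both strains, by 0.28 in the mutant and 0.24 in the wild type. Its interaction was -0.04 (adjusted p = 0.821).

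**Figure D2:**
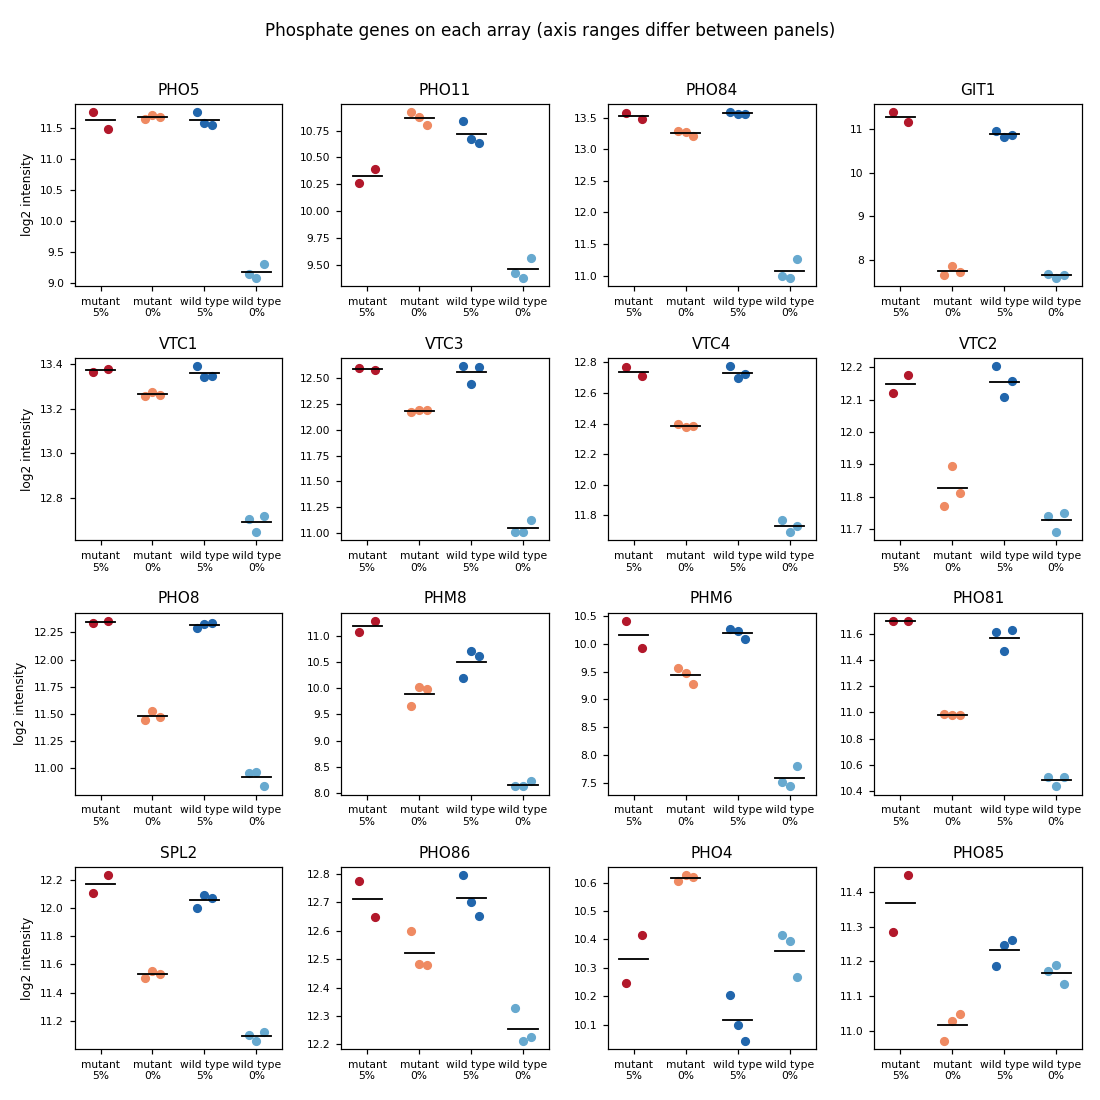
Log2 intensity of 14 phosphate genes and of the regulators PHO4 and PHO85 on each array, as points, in the mutant with and without ethanol (5% and 0%) and the wild type with and without ethanol; bars are group means, and the axes differ between panels and do not start at 0. For PHO5 and PHO84 the wild type without ethanol lies alone at 9.09 to 9.30 and 10.97 to 11.26, while GIT1 is low in both strains without ethanol.

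Beside VTC3, on the opposite strand and read in the opposite direction, lies CTF19, a kinetochore gene in no list. It measured 9.51 and 9.50 in the mutant with ethanol, 8.56, 8.71 and 8.62 in the mutant without, 9.38, 9.42 and 9.40 in the wild type with ethanol and 7.79, 7.76 and 7.94 in the wild type without. The order of the groups was that of VTC3, and the interaction was -0.70 (SE 0.081, adjusted p = 0.00292). SPL2 and ARO9 form the only other such pair of neighbours among the 66 genes.

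Respiratory genes formed the next group. The respiratory chain and ATP synthase list had 42 measured genes, of which 7 had a called negative interaction and 0 a positive one, against 0.826% and 0.385% of all genes. At an unadjusted p under 0.05, 32 were negative and 0 positive, against 8.85% and 11.1% of all genes, and 40 of the 42 estimates were below 0. The median interaction was -0.26. The mean level of the list was 12.11 and 12.18 in the mutant with ethanol, 12.09, 12.14 and 12.13 in the mutant without, 12.28, 12.32 and 12.25 in the wild type with ethanol and 12.01, 12.01 and 12.02 in the wild type without. The mutant's groups overlapped, whereas the wild type's did not, with its arrays with ethanol the highest of all. The changes were small beside those of the phosphate genes.

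CYC1, iso-1-cytochrome c, which carries electrons to cytochrome oxidase, was the member whose call held in every fit that left out 1 array. It measured 11.40 and 11.42 in the mutant with ethanol, 12.27, 12.29 and 12.28 in the mutant without, 11.67, 11.56 and 11.54 in the wild type with ethanol and 11.97, 11.96 and 11.98 in the wild type without. It fell in both strains, by 0.87 in the mutant and 0.38 in the wild type, and its interaction was -0.49 (SE 0.057, adjusted p = 0.00292). Subunits of the cytochrome bc1 complex were called too. QCR2 rose by 0.23 in mutant and 0.54 in wild type cultures, QCR9 by 0.20 in the mutant and 0.46 in the wild type, while RIP1, the iron-sulfur protein, rose by 0.38 in the wild type and had a response of 0.05 in the mutant that was not called. RIP1 read 11.77 and 11.83 in the mutant with ethanol, 11.73, 11.78 and 11.74 in the mutant without, 12.16, 12.09 and 12.02 in the wild type with ethanol and 11.71, 11.73 and 11.68 in the wild type without. Here the strains were apart with ethanol, and their difference without ethanol, 0.04, was not called (adjusted p = 0.582).

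The cytochrome oxidase subunit COX4 and the ATP synthase subunits ATP19 and TIM11 (subunit e) shared the pattern of RIP1 in the mutant, with responses of 0.07, -0.01 and 0.00, none called, against called rises of 0.32, 0.25 and 0.38 in the wild type. Their interactions were -0.25 (adjusted p = 0.0453), -0.26 (adjusted p = 0.0436) and -0.38 (adjusted p = 0.0191). The uncalled members with the smallest p were SDH2 of succinate dehydrogenase (interaction -0.34, adjusted p = 0.0622), the ATP synthase subunits ATP20 (-0.35, adjusted p = 0.0646) and ATP14 (-0.30, adjusted p = 0.0730), QCR8 (-0.27, adjusted p = 0.0721), COX8 (-0.29, adjusted p = 0.0756) and COX6 (-0.45, adjusted p = 0.0859). RIP1, QCR9, ATP19 and COX4 were called in none of the fits that left out 1 array except the fit without replicate 3 of the wild type with ethanol, with adjusted p up to 0.146 for COX4. QCR2 missed the threshold without any array of the mutant in either medium or of the wild type without ethanol (0.0506 to 0.0917), and TIM11 without replicate 3 of the mutant with ethanol, replicates 2 and 3 of the mutant without or replicate 2 of the wild type without (0.0526 to 0.0830). The called members numbered 1 to 20 over those fits, and 2 with the replicate number fitted as a block.

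**Figure D3:**
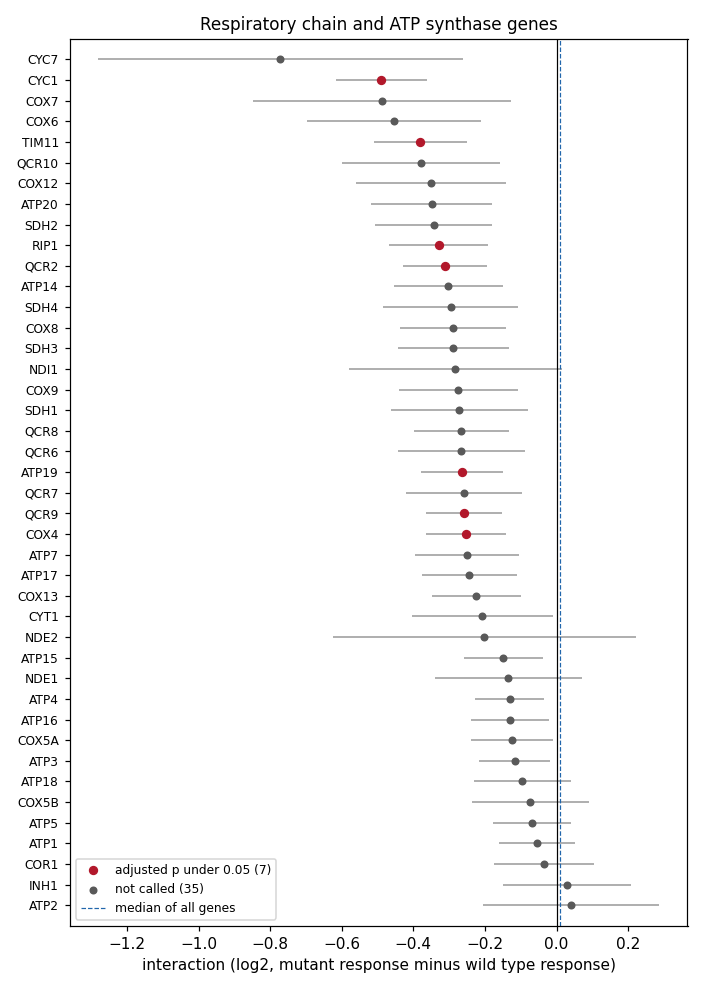
Interaction of each of the 42 respiratory chain and ATP synthase genes, in log2, as points with 95% intervals; red points are the 7 called genes, and the dashed line is the median of all genes, 0.01. Of the 42 points 40 lie left of 0.

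Stress genes followed with a smaller count. The general stress list had 38 measured genes, of which 3 had a called negative interaction and 0 a positive one, against 0.826% and 0.385% of all genes. At an unadjusted p under 0.05, 10 were negative and 0 positive, against 8.85% and 11.1% of all genes, and the median was -0.22. The list averaged 12.03 and 12.24 in the mutant with ethanol, 11.51, 11.78 and 11.77 in the mutant without, 11.64, 12.01 and 12.02 in the wild type with ethanol and 11.12, 11.13 and 11.08 in the wild type without. Replicate 1 was the lowest array in each of the first 3 of these groups. The called genes were HSP26, a small heat shock protein that holds unfolded proteins, NQM1, a transaldolase, and PRX1, a mitochondrial peroxiredoxin.

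HSP26 measured 13.73 and 13.82 in the mutant with ethanol, 12.49, 12.76 and 12.78 in the mutant without, 13.55, 13.81 and 13.82 in the wild type with ethanol and 11.78, 11.84 and 11.71 in the wild type without (interaction -0.85, SE 0.136, adjusted p = 0.0207). The strains overlapped with ethanol and were apart without it. NQM1 measured 11.47 and 11.56 in the mutant with ethanol, 10.69, 10.93 and 10.93 in the mutant without, 10.58, 10.95 and 10.89 in the wild type with ethanol and 9.31, 9.26 and 9.24 in the wild type without (interaction -0.87, SE 0.145, adjusted p = 0.0239). It stood higher in the mutant in both media. PRX1 rose by 0.80 in the mutant and 1.33 in the wild type (interaction -0.53, adjusted p = 0.0497), and GPP2, a glycerol phosphatase on the osmotic response list, by 0.48 in the mutant and 0.86 in the wild type (interaction -0.38, adjusted p = 0.0226). All 4 genes missed the threshold without either array of the mutant with ethanol, replicate 2 or 3 of the mutant without or any array of the wild type without, and PRX1 also without replicate 2 of the wild type with ethanol. The adjusted p was then 0.0501 to 0.135. The called stress genes numbered 0 to 5 over the fits that left out 1 array.

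In sugar uptake, 2 of 24 measured genes were called, both negative, against 0.826% of all genes. Unadjusted p was under 0.05 for 4 negative and 2 positive members, against 8.85% and 11.1% of all genes. The list's median was -0.06, and 6 of its genes were at background in all groups. HXT4, a glucose transporter induced at low glucose, measured 11.21 and 11.02 in the mutant with ethanol, 11.14, 11.23 and 11.12 in the mutant without, 11.26, 11.34 and 11.43 in the wild type with ethanol and 10.75, 10.75 and 10.40 in the wild type without. As with PHO5, the wild type without ethanol was low and the other groups were near each other (interaction -0.76, SE 0.143, adjusted p = 0.0381). MTH1, a repressor of hexose transporter genes, rose by 0.52 in the mutant and 0.92 in the wild type (interaction -0.40, adjusted p = 0.0339). HXT4 missed the threshold without any array of the mutant in either medium, replicate 2 of the wild type with ethanol or replicates 1 and 2 of the wild type without. MTH1 missed it without replicate 3 of the mutant with ethanol, replicates 1 and 2 of the mutant without, replicate 2 of the wild type with ethanol or any array of the wild type without. The adjusted p in those fits was 0.0553 to 0.148 for HXT4 and 0.0583 to 0.132 for MTH1. Neither gene was called with the replicate number fitted as a block.

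Genes of amino acid metabolism moved both ways. Among 70 measured genes of the amino acid synthesis list 3 were called negative and 2 positive, against 0.826% and 0.385% of all genes, with a median interaction of -0.01. Unadjusted p was under 0.05 for 7 negative and 6 positive members, near the shares of all genes, 8.85% and 11.1%. GCV1, a subunit of the glycine cleavage complex, measured 12.64 and 12.64 in the mutant with ethanol, 11.97, 11.88 and 11.88 in the mutant without, 12.41, 12.36 and 12.34 in the wild type with ethanol and 10.90, 10.83 and 10.91 in the wild type without. It rose by 0.73 in the mutant and 1.49 in the wild type (interaction -0.75, SE 0.059, adjusted p = 0.000240), and the mutant was higher in both media. ARO9 and ARO10, which turn aromatic amino acids into fusel alcohol precursors, rose by 0.68 and 0.88 in the mutant and by 1.13 and 1.35 in the wild type, with interactions of -0.44 (adjusted p = 0.0167) and -0.46 (adjusted p = 0.0172). BNA4, of NAD synthesis from tryptophan, had an interaction of -0.45 (adjusted p = 0.0351). SER3, the first enzyme of serine synthesis, fell in both strains, by 1.56 in the mutant and 1.90 in the wild type (interaction 0.34, adjusted p = 0.0347). HIS6, of histidine synthesis, had a response of -0.08 in the mutant that was not called and fell by 0.41 in the wild type (interaction 0.33, adjusted p = 0.0207).

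Some of these calls rested on single arrays. ARO9 and ARO10 missed the threshold without replicates 2 or 3 of the mutant without ethanol or replicate 1 of the wild type in that medium, at adjusted p = 0.0501 to 0.0587. HIS6 missed it without replicate 3 of the mutant with ethanol, replicates 2 and 3 of the mutant without or replicates 1 and 2 of the wild type without (0.0662 to 0.0875). BNA4 missed it in 7 fits, those without replicate 1 of the mutant with ethanol, replicates 2 and 3 of the mutant without, replicate 2 of the wild type with ethanol or any array of the wild type without (0.0607 to 0.116). SER3 missed it in 9, all but those without replicates 2 and 3 of the wild type with ethanol (0.0605 to 0.116).

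Outside the lists, the negative genes had mixed roles. YKL068W-A, an uncharacterised reading frame, rose by 0.29 in the mutant and 0.98 in the wild type (interaction -0.70, SE 0.109, adjusted p = 0.0205), a call lost without replicate 3 of the mutant with ethanol, replicate 2 of the mutant without or replicates 1 and 2 of the wild type without (0.0697 to 0.0875). COS12 and YGR126W were at background in 2 and 3 of the 4 groups, where values have no order, so no fold is given for them. The genes that follow in this paragraph were chosen after their values were seen. MCR1, a mitochondrial cytochrome b5 reductase, rose by 0.12 in the mutant and 0.64 in the wild type (interaction -0.52, adjusted p = 0.00292). Its call held in every fit that left out 1 array. MAF1, the repressor of RNA polymerase III, measured 10.34 and 10.28 in the mutant with ethanol, 10.44, 10.50 and 10.47 in the mutant without, 10.14, 10.11 and 10.14 in the wild type with ethanol and 10.02, 10.01 and 10.05 in the wild type without. It fell by 0.16 in the mutant and rose by 0.10 in the wild type (interaction -0.27, adjusted p = 0.0339), a call that held only without replicate 3 of the wild type with ethanol among the fits that left out 1 array (0.0503 to 0.132 otherwise).

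Other list members with negative interactions were single cases. TIR3, a cell wall mannoprotein made in low oxygen, fell by 0.51 in the mutant, while its response of -0.06 in the wild type was not called (interaction -0.46, adjusted p = 0.0207). CLN1, a cyclin of the G1 phase, fell by 0.18 in the mutant and rose by 0.17 in the wild type (interaction -0.35, adjusted p = 0.0385). SPS4, a sporulation gene, rose by 0.82 in the mutant and 1.12 in the wild type (interaction -0.31, adjusted p = 0.0230). TIR3 lost its call in 4 fits (replicate 1 of the mutant with ethanol, replicate 2 of the mutant without and replicates 1 and 2 of the wild type without, at 0.0584 to 0.0766). SPS4 lost it in 6 (either array of the mutant with ethanol, replicates 2 and 3 of the mutant without, replicates 1 and 2 of the wild type without, at 0.0581 to 0.0875), and CLN1 in all but the fits without replicate 1 of the mutant with ethanol or replicate 3 of the wild type with ethanol (0.0622 to 0.132).

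The 21 positive genes ran from 0.26 to 0.80, with none at 2-fold, and their median response was 0.23 in the mutant and -0.10 in the wild type. Both responses were called with the same sign in 11 of them, the larger in the mutant in 6 and the smaller in 5. The mutant's response alone was called in 5, the wild type's alone in 3, and both with opposite signs in 2. GTT2, a glutathione S-transferase, measured 11.38 and 11.41 in the mutant with ethanol, 8.51, 8.61 and 8.56 in the mutant without, 10.48, 10.67 and 10.66 in the wild type with ethanol and 8.45, 8.43 and 8.51 in the wild type without. It rose 7.11-fold in the mutant and 4.40-fold in the wild type, an interaction of 0.69 (SE 0.080, adjusted p = 0.00292). The strains were close without ethanol, at a difference of 0.10 (adjusted p = 0.255), and apart with it, at 0.79 (adjusted p = 0.000284).

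YLR460C and YCR102C, related genes of the alcohol dehydrogenase family, had the same order of groups. YLR460C measured 8.91 and 8.92 in the mutant with ethanol, 7.84, 7.70 and 7.58 in the mutant without, 8.64, 8.57 and 8.62 in the wild type with ethanol and 8.09, 8.14 and 8.25 in the wild type without (interaction 0.76, SE 0.096, adjusted p = 0.00513). YCR102C measured 8.71 and 8.64 in the mutant with ethanol, 7.67, 7.61 and 7.57 in the mutant without, 8.50, 8.44 and 8.52 in the wild type with ethanol and 8.06, 8.11 and 8.12 in the wild type without (interaction 0.67, SE 0.060, adjusted p = 0.000524). Both genes were lowest in the mutant without ethanol and highest in the mutant with it. As close relatives they may share hybridisation, and they are not independent.

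AUS1, a sterol importer used in low oxygen, had the highest interaction among the called genes, 0.80 (SE 0.143, adjusted p = 0.0339). It measured 9.94 and 9.93 in the mutant with ethanol, 9.36, 9.19 and 9.17 in the mutant without, 9.70, 9.42 and 9.76 in the wild type with ethanol and 9.85, 9.74 and 9.60 in the wild type without. The wild type groups overlapped, and the mutant without ethanol lay below all other arrays. PMA2, the minor isoform of the plasma membrane proton pump, measured 10.79 and 10.82 in the mutant with ethanol, 9.97, 9.97 and 9.94 in the mutant without, 10.15, 10.06 and 10.37 in the wild type with ethanol and 9.95, 9.94 and 9.86 in the wild type without (interaction 0.57, adjusted p = 0.0339). QDR2, a multidrug transporter, fell by 0.68 in the mutant and 1.17 in the wild type (interaction 0.48, adjusted p = 0.0207). AUS1 lost its call without either array of the mutant with ethanol, replicates 2 and 3 of the mutant without or replicates 1 and 2 of the wild type without (0.0748 to 0.125). QDR2 lost it without replicate 3 of the mutant with ethanol, replicates 2 and 3 of the mutant without or replicates 1 and 2 of the wild type without (0.0573 to 0.0875), and PMA2 in every fit but those without replicates 2 or 3 of the wild type with ethanol (0.0510 to 0.128).

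Both called mating genes fell with ethanol, and by less in the mutant. AGA1, which anchors the a-agglutinin to the wall, measured 8.72 and 8.69 in the mutant with ethanol, 9.90, 9.78 and 9.74 in the mutant without, 8.78, 8.40 and 8.63 in the wild type with ethanol and 10.40, 10.34 and 10.39 in the wild type without (interaction 0.67, SE 0.126, adjusted p = 0.0381). ASG7, an a-specific gene, fell by 1.02 in the mutant and 1.31 in the wild type (interaction 0.29, adjusted p = 0.0440). Of 41 measured mating genes these were the only calls, where 0.385% of all genes were called positive and 0.826% negative. At an unadjusted p under 0.05, 8 were positive and 4 negative, against 11.1% and 8.85% of all genes, and the list's median was 0.03. AGA1 lost its call without either array of the mutant with ethanol, replicates 2 and 3 of the mutant without or any array of the wild type without (0.0744 to 0.128), and ASG7 in every fit but those without replicates 1 or 3 of the wild type with ethanol (0.0616 to 0.132).

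The other positive genes with the highest values changed by less. POR2, a mitochondrial porin, had an interaction of 0.42, WTM2, a transcriptional modulator, 0.38, SCS3, an endoplasmic reticulum protein needed for growth without inositol, 0.37, YGL039W, an aldehyde reductase, 0.35, and YNL040W 0.34 (adjusted p 0.0205 to 0.0280). WTM2 rose by 0.21 in the mutant and fell by 0.17 in the wild type, and POR2 rose by 0.14 in the mutant and fell by 0.28 in the wild type. SCS3 rose by 0.43 in the mutant, and its response of 0.07 in the wild type was not called (adjusted p = 0.173). TIP1, a cell wall mannoprotein, rose by 0.49 in the mutant and 0.16 in the wild type (interaction 0.34, adjusted p = 0.0339). All 6 genes lost their call without replicate 3 of the mutant with ethanol or replicates 2 and 3 of the mutant without, and in 2 to 6 other fits each, at adjusted p = 0.0506 to 0.128.

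**Figure D4:**
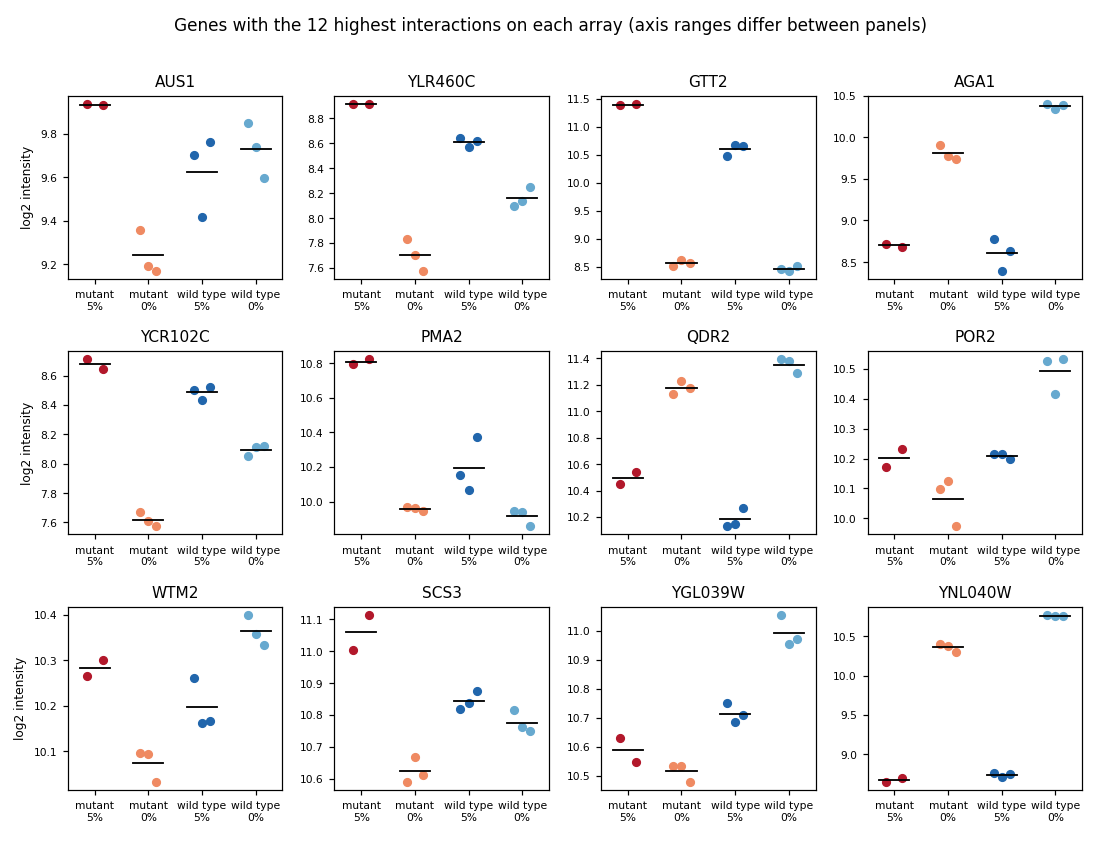
Log2 intensity on each array, as points, of the 12 genes with the highest called interactions, in the mutant with and without ethanol (5% and 0%) and the wild type with and without ethanol; bars are group means, and the axes differ between panels and do not start at 0. GTT2 reads 11.38 and 11.41 in the mutant with ethanol, against 10.48 to 10.67 in the wild type with ethanol, while AUS1 is lowest in the mutant without ethanol.

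Of the 38 lists, 23 held no called gene. They included 132 genes of ribosome biogenesis and 128 ribosomal protein genes, where limma called 0, against 1.21% of all genes. In each of these lists 1 gene in each direction had an unadjusted p under 0.05, against 11.1% positive and 8.85% negative of all genes. Ribosome biogenesis genes had a median response of -0.62 in the wild type and a median interaction of -0.01. In the transcription machinery around the TATA-binding protein, 0 of 41 genes were called, with 6 positive and 5 negative at an unadjusted p under 0.05, against 11.1% and 8.85% of all genes. Nearest to a call there was BUR6, a subunit of the negative cofactor that binds TATA-binding protein, at -0.32 (adjusted p = 0.0542). It measured 12.08 and 11.96 in the mutant with ethanol, 11.85, 11.90 and 11.82 in the mutant without, 11.57, 11.66 and 11.66 in the wild type with ethanol and 11.12, 11.15 and 11.17 in the wild type without, and was higher in the mutant in both media. Glycolysis and fermentation genes, 30 measured, held 0 calls and 2 unadjusted in each direction, against the same shares of all genes, with a median of 0.00. An interaction smaller than the spread between cultures was not detectable with these arrays.

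**Figure D5:**
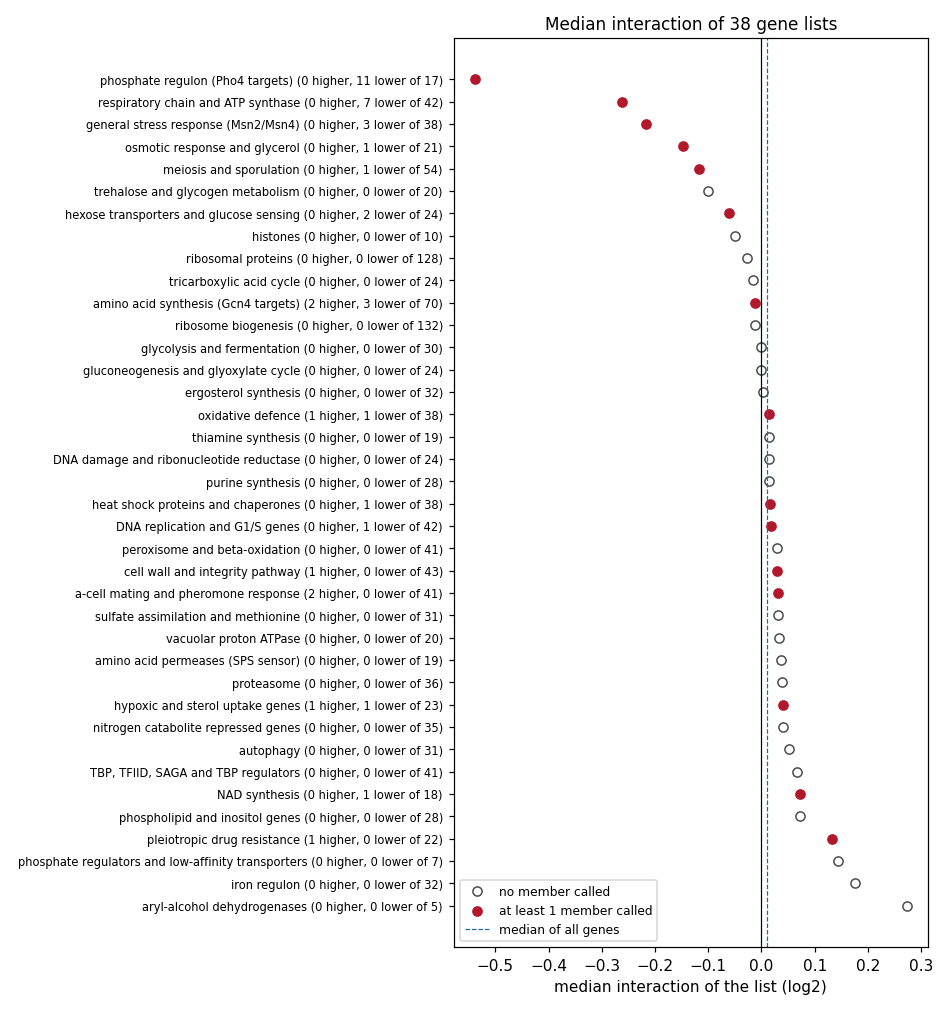
Median interaction, in log2, of each of the 38 gene lists, with the number of called members and of measured genes beside its name; filled points are lists with at least 1 called gene, open points lists with 0, and the dashed line is the median of all genes, 0.01. The phosphate, respiratory and general stress lists lie lowest, at -0.54, -0.26 and -0.22.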

How the data were processed

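RNA of 12 cultures was hybridised to Affymetrix Yeast Genome 2.0 arrays. The deposited table holds 1 linear intensity per probe set and array, made by the authors with RMA (background correction, quantile normalisation and summary of probes) per the submitters' processing notes, which give neither its version nor its settings. The intensities ran from 6.16 to 22228.3, and log2 was taken with no pseudocount. Quantiles differed between the 11 arrays used by up to 0.395 log2 after that. Of 10928 probe sets, 5498 named 1 S. cerevisiae gene each in RefSeq's table (R64), 1746 were taken as S. pombe, 1 had several genes, 213 were controls and 3470 had no name here. The brightest probe set stood for each of 47 genes with several, which left 5449 genes, 118 of them on shared probe sets. A gene was at background, or dim, in a group when all its arrays there read it at or below their S. pombe background, the 95th percentile of those probe sets on the array (on average 7.24). By that measure 139 genes were dim in all groups.

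With limma 3.58.1 under R 4.3.3, lmFit and eBayes fitted 1 mean per group to 11 arrays, with 7 residual and 2.73 prior degrees of freedom. P-values were adjusted by Benjamini-Hochberg over all genes, with 0.05 as the threshold, and adjusted p-values in the text are limma's. The 38 lists (1364 entries, 1328 measured), the members and the naming rule (the 12 highest and 12 lowest called interactions not dim in any group, all called list members, up to 6 uncalled members per list and all phosphate genes) were chosen with earlier results of these data known. The script was tested on simulated data. The 11 arrays correlated at 0.943 to 0.999 with each other and at 0.993 or more within groups, and the number of arrays limits the precision. The array left out had a median of 9.89 log2 and a median r of 0.766 with the others. The alternatives were 10 other settings and 11 fits that each left out 1 array. Promoter sequences were not used here.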

Additional observations from a re-analysis of the deposited data

Results flagged for a closer look

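The interaction term itself tests whether the medium response differs between the strains, and 66 genes passed it. The values that follow, in log2, are those of called genes at background in no group. Among these the lowest were -2.50 for PHO5, -2.22 for PHO84, -1.87 for PHM6, -1.80 for PHO11, -1.11 for VTC3 and -1.04 for PHM8, all phosphate genes. NQM1 followed at -0.87, HSP26 at -0.85, HXT4 at -0.76, GCV1 at -0.75, and CTF19 and YKL068W-A at -0.70 each. The highest were 0.80 for AUS1, 0.76 for YLR460C, 0.69 for GTT2 and 0.67 for both AGA1 and YCR102C. PMA2 had 0.57, QDR2 0.48, POR2 0.42, WTM2 0.38, SCS3 0.37, YGL039W 0.35 and YNL040W 0.34. These 24 genes were named because their values were the most extreme among called genes at background in no group. The values are therefore likely to overstate the sizes.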

How the results depend on the processing

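Directions held more firmly than calls. All 66 genes kept their sign in 20 of 21 alternatives, counting only the 49 still tested when the lowest 25% of genes were left out. With all 12 arrays and no weights, 3 genes were called, 0 positive and 3 negative (131 at an unadjusted p under 0.05), the median interaction of all genes moved to -0.26, and the interaction of UBA4 (-0.0460), the interaction of HIS6 (-0.0901) and the interaction of YNL040W (-0.0882) changed sign. With all 12 arrays and array weights, 486 genes were called, 201 positive and 285 negative, and they included all 66. The weight was 0.00412 for the array titled an outlier, and 10.6 and 6.38 for the arrays numbered 2 in both strains without ethanol. With the replicate number as a block, 46 genes were called, 11 positive and 35 negative, 40 of them among the 66. The phosphate count then stayed at 11. The respiratory count was 2, since RIP1, QCR2, QCR9, ATP19 and COX4 missed the threshold (adjusted p 0.0580 to 0.0794), and the sugar uptake count was 0, with HXT4 at 0.0598 and MTH1 at 0.0667. Same-numbered arrays deviated together among the mutant in both media and the wild type with ethanol (r 0.257 to 0.709 over 7 pairs) but not with the wild type without ethanol (r -0.247 to 0.185 over 8 pairs). Arrays with different numbers had r of -0.629 to 0.476 over 30 pairs of all groups, with a median of -0.126. As same-numbered pairs with the wild type without ethanol fell below 0.1, the numbers were taken not to pair the arrays. No label says that a number marks a shared batch or day. Leaving out 1 array at a time gave 16 to 448 genes, 3 to 196 positive and 13 to 252 negative, and changed no sign among the 66. Aligned array medians, a repeated quantile normalisation, a pseudocount of 100, other filters, a variance trend and the mean of probe sets gave 60 to 73 genes. The search for promoter motifs was not run. The causes were not tested. With 2 arrays of the mutant with ethanol, small interactions are limited by the number of arrays.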

Other observations

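The iron regulon held 0 called genes of 32 measured (limma), but 13 were positive and 0 negative at an unadjusted p under 0.05, where 11.1% and 8.85% of all genes were, and its median interaction was 0.18. The list averaged 10.90 and 10.90 in the mutant with ethanol, 9.95, 10.09 and 10.03 in the mutant without, 10.63, 10.75 and 10.83 in the wild type with ethanol and 10.15, 10.10 and 9.99 in the wild type without. The mutant lay above the wild type with ethanol, and the strains overlapped without it. SIT1 and ENB1, siderophore transporters, had interactions of 0.63 (adjusted p = 0.0753) and 0.36 (adjusted p = 0.102), and FRE6, a ferric reductase, 0.37 (adjusted p = 0.0729). SIT1 measured 11.46 and 11.29 in the mutant with ethanol, 11.06, 11.33 and 11.22 in the mutant without, 11.07, 11.18 and 11.18 in the wild type with ethanol and 11.74, 11.68 and 11.40 in the wild type without.

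Phospholipid and inositol genes had 0 calls of 28 by limma, with 7 positive and 0 negative at an unadjusted p under 0.05, against 11.1% and 8.85% of all genes, and a median of 0.07. Aryl-alcohol dehydrogenase genes had 0 calls of 5, with 3 positive and 0 negative at an unadjusted p under 0.05, against the same shares of all genes, and a median of 0.27. Among them AAD6 measured 8.86 and 8.77 in the mutant with ethanol, 7.98, 8.01 and 7.86 in the mutant without, 8.38, 8.30 and 8.49 in the wild type with ethanol and 7.83, 7.92 and 7.88 in the wild type without (interaction 0.35, adjusted p = 0.0957). Its groups with ethanol did not overlap between the strains, and its groups without ethanol did.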
